A study of Mus musculus with 20 samples.

Results

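The urea cycle is described here through 8 genes: the enzymes Nags, Cps1, Otc, Ass1, Asl and Arg1, and the mitochondrial carriers Slc25a15 and Slc25a13. They are the rows with these gene symbols, by a rule that uses no threshold on a measured value, and make up 8 of the 46095 rows of the deposited count table. All 8 passed the low-count filter, which kept 14440 genes. RNA was sequenced from whole livers. The 20 mice formed 4 groups of 5, namely wild-type (WT) mice on a chow diet, WT mice on a NASH diet (a diet given to induce non-alcoholic steatohepatitis), liver-specific Pck1-knockout (KO) mice on chow, and KO mice on the NASH diet. Per the labels, all mice were 31 to 33 weeks old and had been on their diet for 24 weeks. The stated purpose was to examine the part of Pck1, the cytosolic phosphoenolpyruvate carboxykinase of gluconeogenesis, in NASH brought on by diet. The strain, the Cre driver of the knockout and the composition of the diets are not named in the labels. Each library is labelled as 1 mouse, so the p-values measure the spread between these mice, and nothing says whether littermates were shared between groups.

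The urea cycle turns ammonia, which is toxic to the brain, into urea for excretion, and the liver, mainly its periportal hepatocytes, is where the whole cycle runs. It is split between compartments. In the mitochondrion, NAGS makes N-acetylglutamate, the obligate activator of CPS1, CPS1 joins ammonia and bicarbonate into carbamoyl phosphate, and OTC passes that group to ornithine to give citrulline. In the cytosol, ASS1 joins citrulline to aspartate, ASL splits the product into arginine and fumarate, and ARG1 releases urea and returns ornithine. SLC25A15 exchanges ornithine for citrulline across the inner mitochondrial membrane, and SLC25A13 exports the aspartate that ASS1 uses. Fumarate from ASL can pass through malate to oxaloacetate, the substrate of PCK1.

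On the NASH diet Asl fell in both genotypes, to 39.2% of its chow level in WT and to 35.0% in KO livers. It was 1 of 8 members called in WT livers, where 5.93% of all 14440 genes were called (3.24% lower). In KO livers 2 of 8 were called, Asl and Arg1, where 3.29% of all genes were (1.52% lower), and the difference between the genotypes in the diet response of Arg1 did not pass (0 of 8 members and 0.139% of all genes passed that test). Between KO and WT 0 of 8 members passed on chow, where 5.53% of all genes did, and 0 of 8 on the NASH diet, where 9.65% did. Slc25a13 had the smallest edgeR adjusted p of the 8 there (0.0797, not called). Every KO library lay above every WT library for it, as for 7.67% of all genes. A share of 8 genes is too coarse to be set apart from these percentages. With the diet 6 of the 8 members had a negative and 2 a positive log2 fold change in each genotype. In whole-liver RNA, fewer hepatocytes and less RNA per hepatocyte cannot be told apart.

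Some libraries stood apart from others of the same group. Library totals ran from 9958935 to 20601955 counts. In 6 libraries (replicates 3, 4 and 5 of WT chow, replicate 4 of WT NASH, replicates 4 and 5 of KO chow) longer genes had fewer counts than in the other 14. The slope on log2 length of a library's log2 CPM, less the mean over the 20 libraries, was -0.35 to -0.25, against 0.01 to 0.19. Length here is that of all exons of a gene merged. These 6 also had scaling factors of 0.683 to 0.849, against 0.993 to 1.32. Most of the 6 were chow libraries and none was a KO NASH library, so the slope was not balanced over diet. Sex is not in the labels. By Xist, which is expressed from the inactive X chromosome, and Y-linked transcripts, the WT chow mice were 5 males, the WT NASH mice 4 females and 1 male, the KO chow mice 3 males and 2 females, and the KO NASH mice 4 males and 1 female. Sex and diet therefore nearly coincided in WT mice, and sex and genotype nearly coincided on the NASH diet. Without the 6 libraries the WT chow mice left were replicates 1 and 2, both male, and the WT NASH mice left were all female. In that setting sex and diet coincided fully in WT mice and cannot be told apart. Below, results are also given without the 6 libraries and with sex as a term in the model. Pck1 was lower in KO than in WT livers, with no overlap on either diet: 626 ± 175 against 3573 ± 1139 CPM on chow and 445 ± 112 against 2290 ± 511 CPM on the NASH diet (SD, n = 5). The 6 hepatocyte markers were at high level in every library (summed 49249 to 123189 CPM), and 0 of 6 passed the test in any comparison.

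All values by library are CPM, meaning counts per TMM-adjusted library size expressed on a common scale, and each list of 5 follows replicates 1 to 5. To compare genes with each other, CPM was divided by the length of the principal transcript in kb, from 1477 bases for Arg1 to 5555 for Cps1. On this scale Arg1 had the highest mean in every group, from 657 ± 133 CPM per kb in KO NASH to 1727 ± 701 in WT chow livers (SD, n = 5). Its range overlapped that of Ass1 in every group but KO chow, and in 5 libraries (WT chow replicate 2, WT NASH replicates 1 and 2, KO NASH replicates 3 and 5) Ass1 was above Arg1, so the top rank is not resolved there. Nags, which makes an activator and not a bulk metabolite, was the least abundant, at 18.8 ± 3.98 to 24.9 ± 3.84 CPM per kb, and no Nags library reached the lowest library of any other member. In WT chow livers the order below Arg1 was Ass1 (532 ± 428), Cps1 (420 ± 113), Asl (351 ± 145), Otc (310 ± 124), Slc25a15 (125 ± 28.1) and Slc25a13 (90.8 ± 32.3 CPM per kb). Ass1, Cps1, Asl and Otc overlapped in range there and their order is not resolved. The carriers ranked 6 and 7 of 8 in every group, and between them the ranges overlapped except in WT NASH livers. Asl ranked 4 in both chow groups and in KO NASH livers, and 5 in WT NASH livers, where its highest library, at 173 CPM per kb, lay below the lowest of Cps1, at 238.

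**Figure D1:**
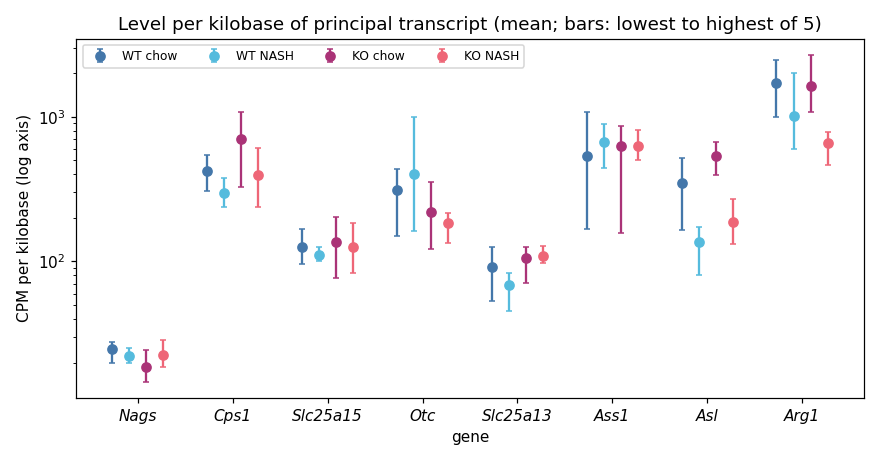
Levels of the 8 members as CPM per kb of principal transcript, on a log axis, in the 4 groups; points are means and bars run from the lowest to the highest of 5 libraries. Arg1 has the highest mean in every group, with a range that overlaps that of Ass1 except in KO chow livers, and Nags, at 18.8 to 24.9 CPM per kb, the lowest.

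The entry of ammonia is set by Nags and Cps1. Nags (chromosome 11, 102145513 to 102149477, plus strand, GRCm38) read 43.7, 40.4, 56.4, 55.7 and 56.1 CPM in WT chow and 51.5, 48.1, 43.1, 40.3 and 42.8 CPM in WT NASH livers. KO livers read 35.9, 30.0, 31.9, 43.1 and 49.3 CPM on chow and 37.6, 58.0, 48.2, 46.2 and 38.9 CPM on the NASH diet. The 4 groups overlapped, and the 3 lowest values of all were KO chow libraries. The KO chow mean of 38.0 ± 8.07 CPM was below the WT chow mean of 50.5 ± 7.78 by a log2 fold change of -0.41 (SE 0.17), with an edgeR adjusted p of 0.185. Nags overlaps the antisense gene Gm11586 and the use of strand in counting is not known, so reads of the pair cannot be told apart.

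Cps1 (chromosome 1, 67123026 to 67231259, plus strand), the rate-controlling enzyme of the cycle, read 2927, 3015, 1745, 2268 and 1699 CPM in WT chow and 1323, 1425, 2112, 1963 and 1465 CPM in WT NASH livers. In KO livers it read 5959, 5086, 3767, 2886 and 1824 CPM on chow and 3010, 1523, 1743, 1319 and 3370 CPM on the NASH diet. The 3 highest of the 20 libraries were KO chow replicates 1, 2 and 3, all above every library of the other groups, while KO chow replicates 4 and 5, which belong to the 6 libraries that stood apart, lay within the WT range. The KO chow mean was 3904 ± 1659 CPM and the WT chow mean 2331 ± 627 CPM (a log2 difference of 0.74, SE 0.33), and the edgeR adjusted p was 0.206. With the diet Cps1 differed by -0.49 (SE 0.32, adjusted p 0.379) in WT and by -0.83 (SE 0.33, adjusted p 0.145) in KO livers. Without the 6 libraries the diet difference in KO livers was -1.18 (SE 0.29) and passed, with an edgeR adjusted p of 0.0255, whereas the WT one, at -0.90, did not (adjusted p 0.138).

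The citrulline step joins Otc and the carrier Slc25a15. Otc, which is X-linked (10252305 to 10321024, plus strand), read 484, 347, 869, 1016 and 879 CPM in WT chow and 374, 736, 514, 2324 and 715 CPM in WT NASH livers. KO livers held 353, 283, 340, 766 and 822 CPM on chow and 441, 455, 313, 502 and 429 CPM on the NASH diet. High values lay in particular libraries of 3 groups: the 6 libraries that stood apart held 766 to 2324 CPM and the other 14 held 283 to 736 CPM, with no overlap. How many of all genes split in this way was not counted, so the split is not shown to be particular to Otc. KO NASH livers, which have none of the 6, were the most even group, at 428 ± 70.1 CPM. In edgeR with all 20 libraries and no added term, no comparison of Otc passed the test. Between genotypes on chow limma voom with quality weights called Otc lower in KO livers (adjusted p 0.00871), where it called 40.4% of all genes. With the length slope as a term Otc was higher with the diet in WT livers (0.70, edgeR adjusted p 0.0331), as it was with sex and slope as terms (0.94, adjusted p 0.0216), against 0.38 (SE 0.43, adjusted p 0.638) without them. On the NASH diet the log2 fold change of KO over WT was -1.12 (SE 0.44, edgeR adjusted p 0.109) and was -0.45 (adjusted p 0.535) without WT NASH replicate 4, the library at 2324 CPM.

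Slc25a15 (chromosome 8, 22375551 to 22398597, minus strand) read 459, 576, 356, 424 and 332 CPM in WT chow and 346, 370, 433, 401 and 350 CPM in WT NASH livers. Its KO values were 693, 522, 481, 387 and 266 CPM on chow and 632, 373, 328, 284 and 545 CPM on the NASH diet. All 4 groups overlapped and the means lay between 380 ± 36.8 and 470 ± 159 CPM. Its log2 fold changes ran only from -0.18 to 0.19 over the 4 pairwise comparisons (SE 0.26 each), with edgeR adjusted p values of 0.694 or more; these SEs leave room for differences of either sign.

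Aspartate enters the cycle through Slc25a13, the liver aspartate-glutamate carrier, whose human counterpart is mutated in citrin deficiency. Slc25a13 (chromosome 6, 6041218 to 6217173, minus strand) read 395, 378, 211, 166 and 269 CPM in WT chow and 241, 221, 260, 143 and 204 CPM in WT NASH livers. The KO values were 345, 348, 393, 348 and 220 CPM on chow and 396, 306, 315, 326 and 359 CPM on the NASH diet. On the NASH diet the 5 KO libraries (306 to 396 CPM) all lay above the 5 WT libraries (143 to 260 CPM), an arrangement that 7.67% of the 14440 genes showed in this direction. The log2 fold change was 0.67 (SE 0.24, KO at 159% of WT), and the edgeR adjusted p of 0.0797 missed the threshold of 0.05. Leaving out the 6 libraries gave 0.55 (SE 0.12) and a pass (adjusted p 0.00631), and DESeq2 and limma voom also called it; with sex as a term it was 0.70 (adjusted p 0.166). With the diet in WT livers the carrier differed by -0.41 (SE 0.24, edgeR adjusted p 0.318). Of 34 alternatives 2 passed, that without the 6 libraries (-0.73, SE 0.15, adjusted p 0.0128) and that with the length slope as a term (-0.59, adjusted p 0.0269). With sex as a term, alone or beside the slope, the difference did not pass. Over the alternatives it ran from -1.02 to -0.05. Without the 6 libraries sex and diet coincided fully in WT mice. The diet difference in KO livers was 0.04 (SE 0.24, adjusted p 0.929). The interaction for Slc25a13, the diet response of KO livers minus that of WT livers, did not pass with all libraries or without the 6.

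Ass1 (chromosome 2, 31470207 to 31520672, plus strand), which forms argininosuccinate, varied most among the WT chow livers. It read 1549, 1820, 282, 326 and 539 CPM in WT chow and 1033, 1267, 1505, 745 and 1119 CPM in WT NASH livers. The KO libraries held 1458, 1334, 1334, 966 and 268 CPM on chow and 1194, 884, 986, 849 and 1379 CPM on the NASH diet. Here the pattern across libraries was the opposite of that of Otc: the 6 libraries that stood apart held 268 to 966 CPM, and the other 14 held 849 to 1820 CPM. Means on chow and NASH diet were 903 ± 726 and 1134 ± 281 CPM for WT, and 1072 ± 486 and 1058 ± 224 CPM for KO livers. None of the log2 fold changes (-0.10 to 0.33, SE about 0.47) passed the edgeR test.

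Asl (chromosome 5, 130011258 to 130029247, minus strand) encodes argininosuccinate lyase. It read 979, 1009, 582, 397 and 1262 CPM in WT chow livers and 330, 358, 418, 194 and 356 CPM in WT NASH livers. The WT groups overlapped by 1 pair, WT NASH replicate 3 at 418 and WT chow replicate 4 at 397 CPM. In KO livers Asl read 1503, 1246, 1194, 1616 and 949 CPM on chow and 618, 319, 335, 354 and 651 CPM on the NASH diet, with no overlap. Means fell from 846 ± 350 to 331 ± 83.3 CPM in WT and from 1302 ± 264 to 456 ± 164 CPM in KO livers (SD, n = 5). The log2 fold change with the diet was -1.35 (SE 0.31, edgeR adjusted p 0.0136) in WT and -1.51 (SE 0.31, adjusted p 0.0162) in KO livers.

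In KO livers the fall of Asl was as large without the 6 libraries (-1.53, SE 0.22, edgeR adjusted p 0.00425) and with sex as a term (-1.54, adjusted p 0.0135). It was -1.50 (SE 0.28, adjusted p 0.0155) in a fit of the male libraries outside the 6, chosen after seeing the data. That fit compares KO chow replicates 1 and 2 with KO NASH replicates 1, 3, 4 and 5. The planned fit of all male libraries did not call Asl in KO livers, where it called only 0.37% of all genes. In WT livers the log2 fold change of Asl was -1.43 (SE 0.26, edgeR adjusted p 0.00777) without the 6 libraries. There the WT chow libraries left were all male and the WT NASH ones all female. With sex as a term it was -1.22 and no longer passed (adjusted p 0.196). Fitted to the WT groups alone it also missed the threshold. The part of sex in the WT difference therefore cannot be told apart from that of the diet. Between genotypes Asl was higher in KO livers by 0.62 (SE 0.31, adjusted p 0.275) on chow and by 0.46 (SE 0.31, adjusted p 0.363) on the NASH diet, and neither passed.

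Arg1 (chromosome 10, 24915221 to 24927484, minus strand), which closes the cycle by releasing urea, read 1545, 1469, 2590, 3509 and 3639 CPM in WT chow and 883, 1089, 1344, 2948 and 1247 CPM in WT NASH livers. In KO livers it read 2018, 1673, 1588, 2790 and 3940 CPM on chow and 1089, 1151, 690, 839 and 1081 CPM on the NASH diet. The highest value of each group that held any of the 6 libraries came from one of them: those 6 read 2590 to 3940 CPM and the other 14 read 690 to 2018 CPM, with no overlap. As for Otc, the share of all genes that split in this way was not counted. In KO livers the mean fell from 2402 ± 982 to 970 ± 197 CPM, with every NASH library below every chow library, and the log2 fold change of -1.31 (SE 0.36) passed with an edgeR adjusted p of 0.0472. Leaving out the 6 libraries gave -0.86 (SE 0.19, adjusted p 0.0156), and it also passed in the fit of male libraries outside the 6 (SE 0.22, adjusted p 0.0260). The planned fit of all male libraries did not call Arg1 in KO livers, where it called only 0.37% of all genes. The call was lost, with adjusted p values up to 0.118, on leaving out any 1 of 12 libraries (WT chow replicate 3, WT NASH replicates 2, 3 and 5, KO chow replicates 1, 4 and 5, and each KO NASH replicate). In WT livers the diet difference was -0.76 (SE 0.35, adjusted p 0.206); without WT NASH replicate 4, at 2948 CPM, it was -1.18 (adjusted p 0.0280), and without all 6 libraries it was -0.39 (adjusted p 0.333).

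Arg1 is also expressed by macrophages. The 8 Kupffer cell and macrophage markers summed to 312 to 420 CPM in KO NASH livers and to 443 to 1163 CPM in KO chow livers, with no overlap, although 0 of 8 passed the edgeR test there (7 of 8 had a negative log2 fold change, 6 had an unadjusted p under 0.05, and the median was -1.24). In WT livers the sums were 287 to 1004 CPM on chow and 439 to 835 CPM on the NASH diet. The part of these markers in the Arg1 difference was not tested. The 6 periportal hepatocyte markers had a median log2 fold change with the diet of -0.32 in WT livers, with 1 of 6 called lower, and of -0.31 in KO livers, with 0 of 6 called. Over all genes 5.93% were called with the diet in WT and 3.29% in KO livers. With the diet in KO livers 3199 of all 14440 genes had an unadjusted p under 0.05 in edgeR.

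**Figure D2:**
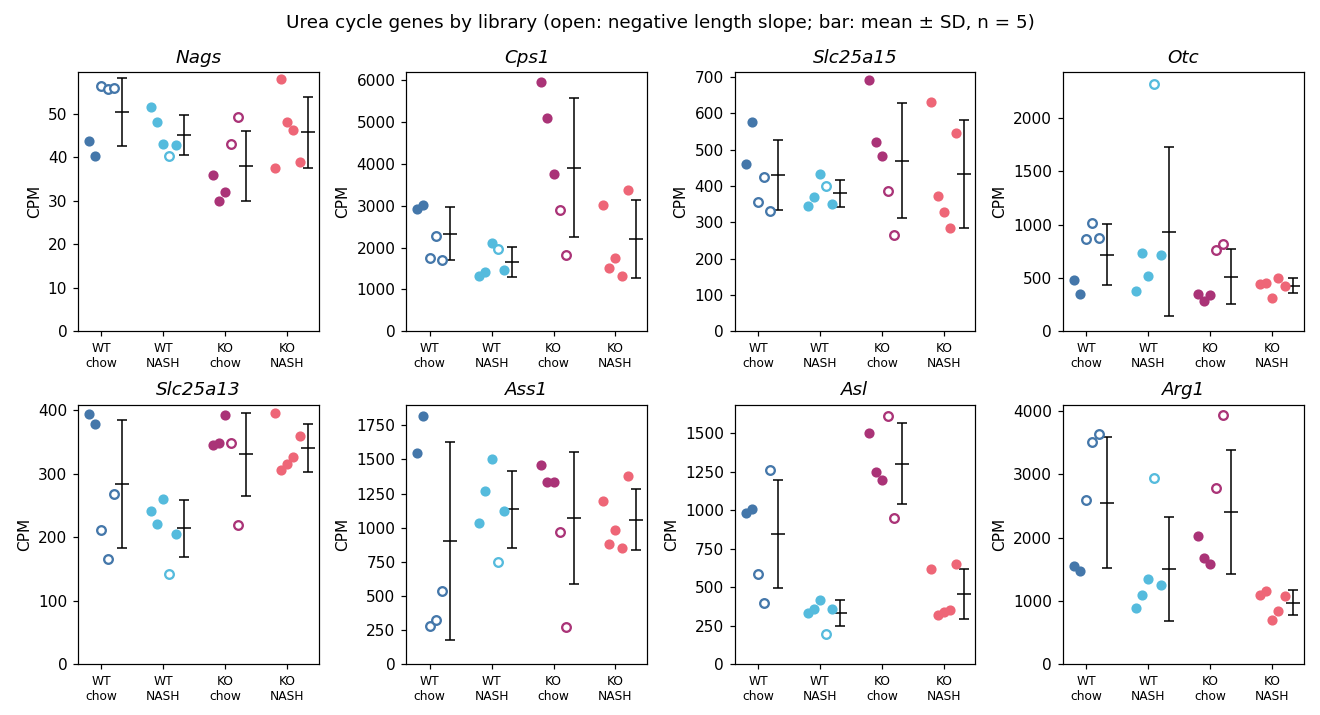
CPM of each member in each of the 20 libraries by group, with the mean ± SD (n = 5) beside them; open symbols are the 6 libraries of negative length slope and filled symbols the other 14. Asl is lower on the NASH diet in both genotypes, whereas high Otc and Arg1 and low Ass1 values sit in the 6 libraries. How many other genes split between the 6 and the 14 was not counted.

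For Asl and Arg1 every KO NASH library lay below every KO chow library, as it did for 4.31% of all genes. The median log2 fold change of the members was -0.29 in WT and -0.19 in KO livers, against 0.01 and -0.02 over all genes. The WT and KO diet comparisons contrast different libraries, but all 20 libraries shared 1 fit and its estimate of the spread. The tests are therefore not fully independent, and the Arg1 call in KO livers was lost on leaving out some WT libraries, as given above. Without the 6 libraries the calls were Asl and Slc25a13, both lower, in WT livers (4.88% of all genes called) and Asl, Arg1 and Cps1, all lower, in KO livers (7.69% called). In that setting sex and diet coincided fully in WT mice. The fit of male libraries outside the 6, chosen after seeing the data, called Asl and Arg1 in KO livers, where 9.43% of all genes were called. The planned fit of all male libraries called neither there, and it called only 0.37% of all genes in that comparison.

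Between genotypes on chow an unadjusted p under 0.05 in edgeR was reached by 2 of the 8 members, Cps1 and Nags, and by 2795 of all 14440 genes. DESeq2 called 0 members, with 9.62% of all genes called, and limma voom with quality weights called 6, with 40.4% of all genes called. Under the NASH diet 2 members, Otc and Slc25a13, had an unadjusted p under 0.05, as did 3701 of all 14440 genes. Such counts of 2 of 8 cannot be set apart from the shares over all genes. DESeq2 and limma voom each called Slc25a13 there and no other member, with 15.2% and 23.8% of all genes called. With the 6 libraries left out, 0 of 8 were called on chow (5.33% of all genes) and 1 on the NASH diet, Slc25a13 (20.3% of all genes). Member medians were 0.18 on chow and 0.10 on the NASH diet, against 0.00 over all genes in both. Comparisons that share a group of libraries, such as the WT diet comparison and the chow genotype comparison, are not independent of each other.

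The interaction tests whether the knockout changed the response to the diet. None of the 8 members passed it in edgeR, with all libraries or without the 6 (0.518% of all genes called without them). With all libraries 0 members had an unadjusted p under 0.05, against 1191 of all 14440 genes. DESeq2 called 0 members (1.31% of all genes) and limma voom 2, Ass1 and Nags (13.5% of all genes). For Asl the interaction was -0.16 (SE 0.43, adjusted p 0.966), so that the falls in WT and KO livers differed by less than their error. For Arg1, called in KO and not in WT livers, it was -0.54 (SE 0.50, adjusted p 0.856), and a difference between the genotypes is not shown.

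**Figure D3:**
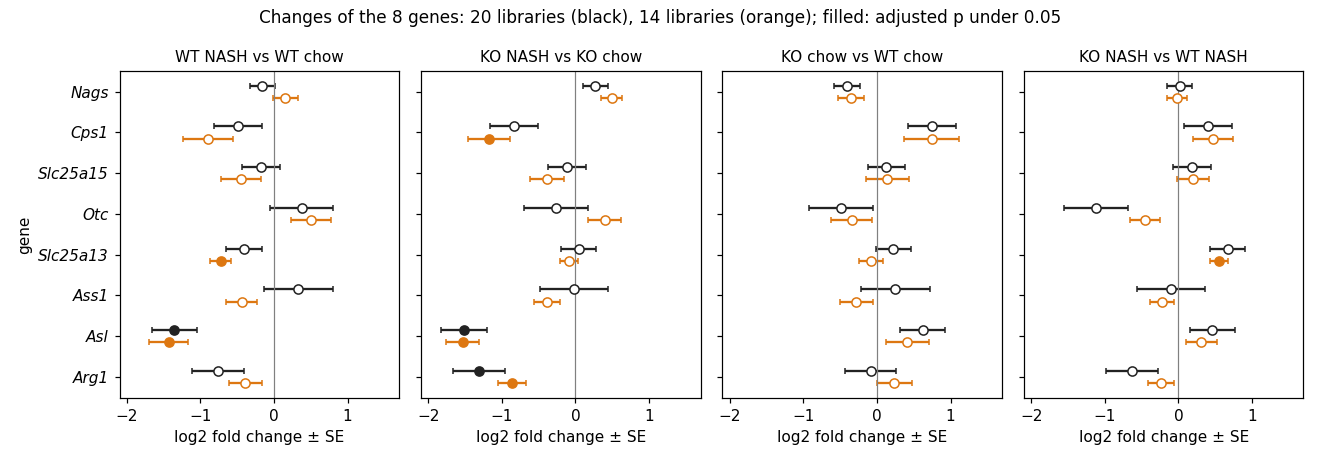
Log2 fold changes with SE of the 8 members in the 4 pairwise comparisons, from edgeR with all 20 libraries and without the 6 libraries of negative length slope; filled points passed an adjusted p under 0.05. With all libraries only Asl on the diet in both genotypes and Arg1 on the diet in KO livers are filled, and the WT diet difference of Ass1 goes from 0.33 to -0.44 when the 6 libraries are left out.

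Around the cycle lie the reactions that deliver its nitrogen. Of 13 genes that supply ammonia or aspartate, such as transaminases, glutaminase and amino acid catabolic enzymes, 1 rose and none fell with the diet in WT livers, where 5.93% of all genes were called, and it was Glud1, glutamate dehydrogenase, which frees ammonia from glutamate in the mitochondrion. Glud1 went from 600 ± 113 CPM on chow to 1354 ± 135 CPM on the NASH diet in WT livers, and in KO livers it was at 356 ± 85.0 and 586 ± 135 CPM on the same diets. In the main edgeR fit it was the only gene of this list called in any comparison. Glud1 rose with the diet in WT livers by 1.18 (SE 0.22, edgeR adjusted p 0.00319). It was lower in KO than in WT livers on chow (-0.75, SE 0.21, adjusted p 0.0441) and on the NASH diet (-1.21, SE 0.22, adjusted p 0.0018). In KO livers the diet difference of Glud1 was 0.72 (adjusted p 0.0702). With sex as a term the WT rise was 1.00 and did not pass (adjusted p 0.0772), and without the 6 libraries the difference on chow was -0.80 (adjusted p 0.0571). The list's median was -0.27 in WT and -0.02 in KO livers with the diet, and 0.03 and 0.11 between genotypes on chow and NASH diet. Without the 6 libraries 2 of the 13 were called higher and 1 lower between genotypes on the NASH diet, where 20.3% of all genes were called.

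Arginine and ornithine also leave the cycle, into creatine, nitric oxide, polyamines and proline. Of 11 such genes 10 were tested (Slc25a2 was not), and the counts below stand beside 5.93% of all genes called with the diet in WT livers, 3.29% with the diet in KO livers and 9.65% between genotypes on the NASH diet. With the diet in WT livers 1 rose and 1 fell: Gamt, the methyltransferase that completes creatine, rose by 1.41 (edgeR adjusted p 0.0257), from 37.5 ± 20.2 to 99.4 ± 28.2 CPM, and Oat, ornithine aminotransferase, fell by 1.24 on the log2 scale (adjusted p 0.0211), from 2557 ± 880 to 1083 ± 383 CPM. Without the 6 libraries both missed the threshold (Gamt 1.42, adjusted p 0.0527; Oat -1.08, adjusted p 0.0530), and with sex as a term Gamt did too (0.72, adjusted p 0.451). In KO livers Nos3, endothelial nitric oxide synthase, rose with the diet by 1.45 (adjusted p 0.0219), from 2.40 ± 0.939 to 6.60 ± 1.60 CPM, and Odc1, which starts polyamine synthesis, fell by 0.91 on the log2 scale (adjusted p 0.0229), from 124 ± 41.0 to 66.1 ± 7.79 CPM. Oat in KO livers read 2334 ± 1074 CPM on chow and 1156 ± 139 CPM on the NASH diet and was not called. On the NASH diet Nos3 was higher in KO than in WT livers by 1.21 (adjusted p 0.0242) and Gamt lower (-1.37, adjusted p 0.0221); with sex as a term neither passed (Nos3 1.12, adjusted p 0.0971; Gamt -0.86, adjusted p 0.180). Of the 5 endothelial markers 2 were called higher in that same comparison, and their part in the Nos3 difference was not tested. On chow none of the 10 passed between genotypes, Gamt having the smallest p (-1.08, adjusted p 0.0861).

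Ammonia that escapes periportal urea synthesis is taken up by pericentral hepatocytes and fixed into glutamine by glutamine synthetase, Glul. Of 3 genes of this pathway, Glul was the only one called in the main edgeR fit. It was lower in KO than in WT livers on the NASH diet, where 9.65% of all genes were called (-0.75, SE 0.22, edgeR adjusted p 0.0385, 773 ± 118 against 1300 ± 172 CPM). With sex as a term it did not pass (-0.52, adjusted p 0.199). In the same comparison 3 of 6 pericentral markers were called lower, with a median of -0.65 over the 6. Glul is itself 1 of these 6 and 1 of the 3 called, and Slc1a2 is also among the 6. The part of the other markers in the Glul difference was not tested. The smallest p elsewhere belonged to Glul for the diet in WT livers (0.53, adjusted p 0.164), to the glutamate transporter Slc1a2 between genotypes on chow (-0.99, adjusted p 0.0539) and to the ammonium transporter Rhbg for the diet in KO livers (0.44, adjusted p 0.397).

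Of 14 receptors and transcription factors that act on the cycle's genes, the main edgeR fit called 1 in each of 3 comparisons, always lower, and none with the diet in KO livers. That is near the share of all genes called in these 3 comparisons (5.93%, 5.53% and 9.65%). These were Gcgr, the glucagon receptor, with the diet in WT livers (-0.77, edgeR adjusted p 0.0483; 251 ± 75.8 to 148 ± 11.4 CPM), Klf15, a factor that drives amino acid catabolism, between genotypes on chow (-0.77, adjusted p 0.0244; 204 ± 22.1 in WT and 120 ± 19.7 CPM in KO), and Nr3c1, the glucocorticoid receptor, between genotypes on the NASH diet (-0.64, adjusted p 0.0270; 112 ± 6.98 in WT and 72.1 ± 6.17 CPM in KO). With the diet in KO livers Hnf4a, a factor of hepatocyte identity, had the smallest p (0.83, adjusted p 0.0710). Without the 6 libraries Gcgr was at -0.22 (adjusted p 0.631), with sex as a term it was at -0.81 (adjusted p 0.198), and Klf15 without the 6 was at -0.73 (adjusted p 0.0693). With sex as a term Nr3c1 did not pass (-0.52, adjusted p 0.128). Other settings gained calls. Without the 6 libraries 1 of the 14 was called higher and 3 lower between genotypes on the NASH diet (20.3% of all genes called). In that setting 1 was called higher with the diet in KO livers (7.69% of all genes called).

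Of 7 targets of glucagon and glucocorticoids, Tsc22d3, a glucocorticoid-induced transcript also named Gilz, was the only one called in the main edgeR fit. It was called there in all 4 pairwise comparisons (5.93%, 3.29%, 5.53% and 9.65% of all genes called with the diet in WT and KO livers and between genotypes on chow and NASH diet). In WT livers it read 66.0 ± 17.4 CPM on chow and 189 ± 34.1 CPM on the NASH diet, and in KO livers 24.6 ± 12.0 and 60.8 ± 19.9 CPM. Tsc22d3 rose with the diet by 1.51 in WT (edgeR adjusted p 0.00717) and 1.31 in KO livers (adjusted p 0.0301), and was lower in KO livers on chow (-1.43, adjusted p 0.0116) and on the NASH diet (-1.63, adjusted p 0.00302). With sex as a term the WT diet difference was 1.12 and was not called (adjusted p 0.152). Without the 6 libraries the WT diet difference (1.46, adjusted p 0.0707) and the chow genotype difference (-1.54, adjusted p 0.0513) missed the threshold. The list as a whole did not follow it: its median was -0.03 in WT and -0.05 in KO livers with the diet. In the main edgeR fit no gene of the 5 lists passed the interaction. The smallest adjusted p values there were 0.258 for Nos3, 0.661 for Gcgr, 0.741 for Hal, 0.82 for Glul and 0.827 for Per1.

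Several of these calls depended on single libraries when each of the 20 was left out in turn. Glud1 on chow lost its call without any of 15 libraries (WT chow 1 to 4, WT NASH 1, 2, 3 and 5, KO chow 1, 2, 4 and 5, KO NASH 2, 3 and 4; edgeR adjusted p up to 0.108), and Gcgr without any of 13 (WT chow 3, 4 and 5, WT NASH 1, 2, 3 and 5, KO chow 1, 3 and 4, KO NASH 2, 4 and 5; up to 0.145). Tsc22d3 with the diet in KO livers lost it without any of 8 (KO chow 1, 2, 4 and 5, KO NASH 1, 2, 4 and 5; up to 0.0739). Glul lost it without any of 7 (WT NASH 1, 2 and 5, KO NASH 1, 3, 4 and 5; up to 0.105), and Nr3c1 without any of 6 (WT NASH 2, 3 and 5, KO NASH 1, 3 and 5; up to 0.0729). Gamt lost the WT diet call without WT chow 3 or 4 or WT NASH 1, 2 or 3 (up to 0.0747) and the NASH genotype call without WT NASH 2 or KO NASH 1, 3 or 5 (up to 0.0685). Nos3 lost the genotype call without the same 4 libraries (up to 0.0631) and the KO diet call without KO chow 4 or 5 or KO NASH 5 (up to 0.0582). Klf15 lost its call without WT chow 3 or 4 or KO chow 1 or 2 (up to 0.0776), Odc1 without KO chow 5 or KO NASH 2, 4 or 5 (up to 0.0615), and Oat without WT chow 5 or WT NASH 1 or 5 (up to 0.0721). Calls were gained for Glud1 with the diet in KO livers without WT NASH 4 or KO chow 3 (adjusted p 0.0492 or lower), for Hnf4a there without WT NASH 4 (0.0413), for Gamt on chow without KO chow 3 (0.0430) and for Slc1a2 on chow without WT chow 4, WT NASH 4 or KO chow 3 (0.0469 or lower). The other calls of Glud1 and Tsc22d3, and those of Asl, held without any 1 library.

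**Figure D4:**
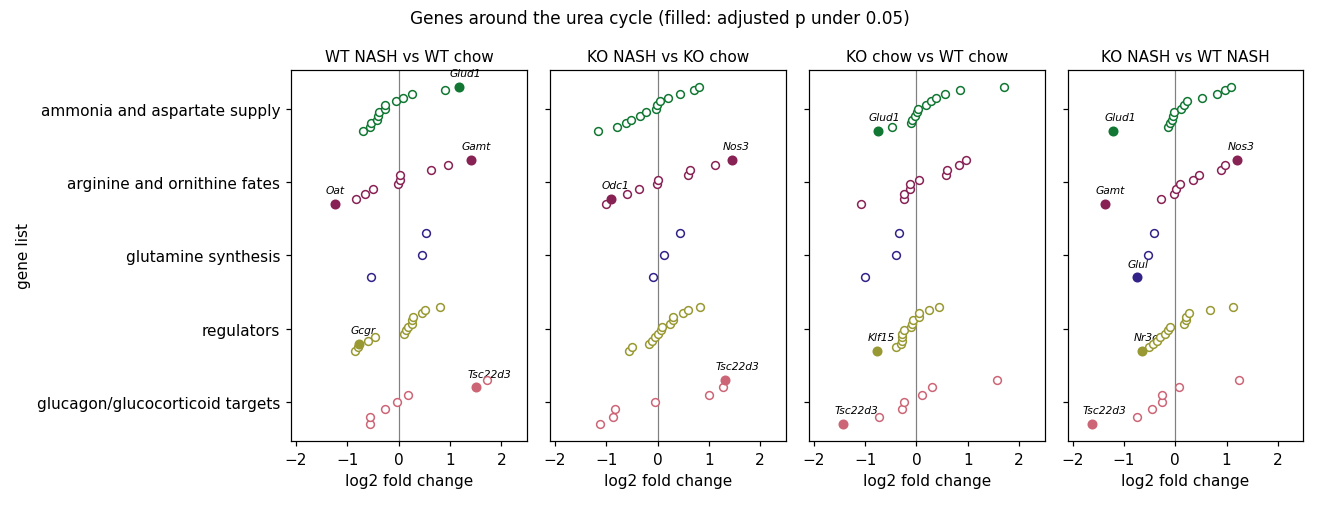
Log2 fold changes of the genes in the 5 pathway lists in the 4 pairwise comparisons, 1 point per gene, with called genes filled and named. Few genes of any list are called, and Glud1 and Tsc22d3 recur: both are higher with the NASH diet in WT livers and lower in KO livers on either diet.

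The genes whose levels moved most like the mean of the 8 members were ranked by the root mean square difference of centred log2 CPM over the 20 libraries, among the 9093 genes that averaged 5 CPM or more. The 5 nearest were Hnrnpa1 (0.157), H3f3b (0.158), Sf3b1 (0.159), Fbxw2 (0.160) and Oxa1l (0.163 log2 units). The members themselves lay farther from their own mean profile, from 0.27 for Slc25a15 and 0.38 for Slc25a13 to 0.77 for Ass1 and 0.79 for Otc. That profile varied little: its own root mean square over the 20 libraries was 0.26, which is the value a gene with no change at all would get. As a share of all counts, the 8 members took 0.503% to 0.894% in WT livers on chow and 0.504% to 0.728% on the NASH diet, and in KO livers 0.707% to 1.30% and 0.534% to 1.03%.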

How the data were processed

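RNA-seq of whole mouse liver was deposited as 1 table of raw counts per gene symbol, made by the authors with HISAT2 2.0.4 and GRCm38, per the submitters' processing notes. RNA was extracted with Trizol and used at an integrity number above 8, per the labels' protocols. How reads were counted, with which annotation and with or without strand, is not given in the sources used here. Columns named HFD were taken as the NASH diet by elimination, since the other columns name chow. Sums per library ran from 9958935 to 20601955 counts. Reads carry no molecular identifiers, so depth speaks of counting error only.

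The counts entered edgeR 4.0.16 (R 4.3.3). Its filterByExpr, at a minimum count of 10, kept 14440 genes holding 99.91% of the counts. TMM set the library scaling, and the 20 libraries shared 1 fit with a mean for each group (common biological coefficient of variation 39%). A gene was called when its quasi-likelihood p, adjusted over all tested genes by Benjamini-Hochberg, was under 0.05. The script was tested on simulated data. Alternatives were RLE scaling, scaling without the 20 most abundant genes, no filter, a mean of at least 5 CPM, DESeq2 1.42.0, limma 3.58.1 (voom with quality weights), fits of the groups compared alone, terms for sex, length slope (from 9465 genes with a length) or replicate number, subsets of libraries and leaving out each library. Positions and lengths come from GENCODE release M21 on GRCm38.

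Named genes are the 8 members, in each pathway list the called genes (or that of smallest p), Pck1, and the 5 genes nearest the members' mean profile. The members and lists were chosen with earlier results of these data known. Marker lists were hepatocyte, periportal and pericentral hepatocyte, Kupffer cell and macrophage, stellate, endothelial, cholangiocyte, monocyte and neutrophil, B and T cell, and red blood cell genes.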

Additional observations from a re-analysis of the deposited data

Results flagged for a closer look

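Of 32 combinations of member and group, 3 held a sample far from the other 4 (a gap of over 0.71 of the group's range, Dixon's 95% critical value), where chance gives 1.6. Arg1 in WT NASH livers was highest in replicate 4, at 2948 CPM against 883 to 1344 CPM in the others, a gap of 0.777 of the range. Otc was highest in the same library, at 2324 CPM against 374 to 736 CPM, a gap of 0.815. This library is the WT NASH group's only male and its only one of negative length slope, and the part of either in these values was not tested. Slc25a13 in KO chow livers was lowest in replicate 5, at 220 CPM against 345 to 393 CPM, a gap of 0.724. Replicate 5 is a female library of negative length slope.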

How the results depend on the processing

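The settings other than leaving out a library gave 808 values on the same side as the main fit for 68 results, 53 that newly passed, 78 that no longer passed and 52 of opposite sign. The share of all genes called moved with the setting and is given in brackets. Members called with the diet in WT livers numbered 1 (5.93%), and 3 with limma voom (40.6%), 0 with the compared groups alone (2.74%), 0 with a sex term (1.11%), 3 with a slope term (12.1%), 0 in males (0.596%, with 1 WT NASH male) and 2 without the 6 libraries (4.88%). With both terms the count was again 1 (5.01%), but Asl was lost and Otc gained. With the diet in KO livers they numbered 2 (3.29%), and 3 with a slope term (6.40%) and 3 without the 6 libraries (7.69%), Cps1 being added. They were 1 with no filter (0.960%), 1 with a mean of at least 5 CPM (3.29%), 4 with limma voom (12.7%), 4 with both terms (9.38%), 0 in males (0.370%) and 1 with KO NASH replicates 1 and 5 summed (1.23%). The 0 in females, from 1 KO NASH and 2 KO chow libraries, says nothing of the members, since that fit called 0 of all genes. Asl lay between -1.73 and -1.41 in all alternatives of the KO diet comparison. Between genotypes on chow they numbered 0 (5.53%), and 6 with limma voom (40.4%) and 2, Cps1 and Nags, with both terms (13.8%). On the NASH diet they numbered 0 (9.65%), and 1, Slc25a13 each time, with DESeq2 (15.2%), limma voom (23.8%), the compared groups alone (15.2%), a slope term (16.6%) and without the 6 libraries (20.3%), and 2 in males, Arg1 and Otc (13.0%, with 1 WT male). The interaction gave 0 (0.139%), and 2 with limma voom (13.5%). Leaving out 1 library gave 1 to 2 calls for the diet in WT, 1 to 2 in KO livers and 0 to 0 elsewhere. The cause of these moves was not tested, and apart from the removed samples or genes none is shown by construction.

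The replicate numbers did not pair the samples (same-number correlations ran from -0.41 to 0.52), and the replicate block gave the same counts of 1, 2, 0, 0 and 0 members, in that order of comparisons.

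Log2 fold changes changed sign as follows, none of them called in the main fit. With the diet in WT livers Otc was -0.37 with limma voom, Ass1 -0.31 in males and -0.44 without the 6 libraries, Arg1 0.19 in males, Nags 0.15 without the 6 and Slc25a15 0.085 with a sex term. Between genotypes on chow Ass1 was -0.28 without the 6 and -0.26 in males outside the 6, Slc25a15 -0.033 with a slope term, and Slc25a13 -0.083 without the 6 and -0.15 in males outside the 6. There Arg1 was 0.011 with a sex term, 0.21 with a slope term, 0.27 with both, 0.23 without the 6 and 0.30 in males outside the 6. On the NASH diet Cps1 was -0.23 with both terms and -0.030 in females, Ass1 0.59 in males, Asl -0.17 and Arg1 0.037 in females, Nags -0.0016 with limma voom and -0.019 without the 6, and Slc25a15 -0.014 with a sex term and -0.21 with both. With the diet in KO livers Otc was 0.21 with limma voom, 0.44 with a slope term, 0.35 with both, 0.40 without the 6 and 0.40 in males outside the 6. Ass1 was 0.018 at a mean of at least 5 CPM, 0.094 with the replicate block and 0.15 in females, Slc25a15 0.010 and Rhbg -0.19 in females. Slc25a13 was -0.046 with limma voom, -0.19 with a slope term, -0.19 with both, -0.090 without the 6 and -0.0017 with replicates 1 and 5 summed. For the interaction Otc was 0.58, Arg1 0.15, Slc25a15 -0.41 and Per1 -0.45 with limma voom, and Ass1 0.11 and Asl 0.57 in males. Ass1 was 0.059 without the 6 and Glul 0.0016 with a sex term. Slc25a15 was also -0.26 with a sex term, -0.30 with both, -0.14 in males and -0.063 with replicates 1 and 5 summed.

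Leaving out 1 library gave -0.31 to 0.58 for Otc with the diet in WT livers, -0.31 to 0.080 for Arg1 and -0.051 to 0.31 for Slc25a15 between genotypes on chow, and -0.22 to 0.023 for Ass1 and -0.080 to 0.094 for Nags on the NASH diet. It gave -0.29 to 0.12 for Ass1, -0.30 to 0.061 for Slc25a15 and -0.10 to 0.11 for Slc25a13 with the diet in KO livers. Interactions were -0.84 to 0.036 for Otc, -0.37 to 0.0048 for Asl and -0.11 to 0.24 for Slc25a15.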

Other observations

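KO NASH replicates 1 and 5 were the most alike of all pairs within a group: their counts differed by a chi-square of 7.98 per degree of freedom, against 21.6 to 455 for the other 39 pairs. That is above sampling noise, and they were counted as separate mice. They were also the highest of their group for Cps1 (3010 and 3370 CPM), Asl (618 and 651 CPM) and Slc25a15 (632 and 545 CPM).

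Among the other cell type lists, 1 of 6 pericentral hepatocyte markers was called lower with the diet in WT livers, and it was Oat, already described above. Between genotypes on chow 1 of these 6 was called lower. Of 6 stellate cell markers 1, and of 5 cholangiocyte markers 1, were called higher with the diet in KO livers. Of 6 tested B and T cell markers 1 was called higher with the diet in WT livers, and of 5 monocyte and neutrophil markers 0 were called in any comparison by edgeR (0 with an unadjusted p under 0.05). Of 5 red blood cell genes 2 were called lower with the diet in each genotype, with medians of -1.31 in WT and -1.79 in KO livers. Over all genes 5.93% were called with the diet in WT livers, 3.29% with the diet in KO livers and 5.53% between genotypes on chow. In a list of 5 or 6 genes 1 call cannot be set apart from these shares.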
